A study of Homo sapiens with 4 samples.

Results

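SiHa and MS751 are established human lines labelled as squamous cell carcinoma of the cervix. SiHa was derived from a primary tumour and MS751 from a lymph node metastasis. The comparison is between the 2 libraries made from them after transfection with a control siRNA (siControl), SiHa against MS751. Both cultures had the genotype WT in the labels and were taken on day 2. A further library of each line had received siDDX24-1 for the same time, an siRNA against the RNA helicase gene DDX24 (genotype DDX24 knockdown), and served here to see whether a line difference was also present in the other library of each line. Each of the 4 groups held 1 library, the labels give neither passage nor batch, and each patient is represented by 1 line. All genes of the deposited count tables were included, 13113 in the union of both lines. Of these, 11112 were listed for both lines and have a fold, 1077 were listed for SiHa only (8.21% of the union) and 924 for MS751 only (7.05%).

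Cervical squamous carcinoma arises from a stratified epithelium. Epithelial cells hold themselves together with cadherins and desmosomes and fill their cytoplasm with keratins, of which KRT8, KRT18, KRT7 and KRT19 are typical of simple layers and KRT5, KRT14 and KRT17 of basal or stressed stratified layers. Mesenchymal cells instead build vimentin filaments and secrete fibrillar collagens, and carcinoma lines can lie anywhere between these states. Both lines are known to carry papillomavirus, whose oncoproteins act on p53 and RB, and viral transcripts were not analysed here.

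Levels are given as CPM, which are read counts divided by library size, with library sizes scaled by the trimmed mean of M values (TMM). A pair of CPM values always gives siControl first and siDDX24-1 second. A difference is log2 CPM of SiHa minus log2 CPM of MS751 between the siControl libraries, so it is positive where SiHa was higher. Its 95% interval covers counting error at most. Where a pair of differences is given, the first is between the siControl and the second between the siDDX24-1 libraries. With 1 library a side no p-value or SD is given, and the spread between cultures is unknown. A gene counted as higher or lower at a difference of at least 2-fold, and it held where the siDDX24-1 libraries also differed at least 2-fold in the same direction. The libraries had 13160487 to 20117442 counts, and mitochondrially encoded genes took 8.13% to 12.2% of them. The deposited tables have no gene below about 1 CPM in either library of a line, so a gene not listed has no value for that line and may lie anywhere under that level in at least 1 of its libraries. In bulk RNA, fewer cells of a kind and less RNA per cell cannot be told apart. DDX24 itself had 3464 and 575 counts in SiHa and 2072 and 993 in MS751, the second count of each line being that of its knockdown library, and its exons overlap OTUB2. Its baseline difference was 0.34, interval 0.26 to 0.42.

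The marker genes of the labelled tumour type were found in SiHa more than in MS751. Of 10 epithelial markers, 8 were listed for SiHa and 4 for MS751. Their summed level was 4309 and 4185 CPM in SiHa against 132 and 154 CPM in MS751. Of 13 squamous markers, 7 were listed for SiHa and 2 for MS751 (PERP and SFN), with sums of 2150.3 and 2342 CPM against 137 and 149 CPM. TP63, the transcription factor that defines squamous cells, was listed for neither line, nor were KRT5, KRT14, KRT6A, DSG3 and DSC3. By these markers the MS751 libraries go against their squamous label, and the SiHa libraries carry it in part. The identity of the cultures was not tested here, so every line difference is one between libraries labelled SiHa and MS751. Of 10 fibroblast markers, 5 were listed for each line, summing to 26.1 and 16.3 CPM in SiHa and 456 and 490.4 CPM in MS751. COL3A1 and COL1A1 made up most of the MS751 sum, and PDGFRA, PDGFRB, DCN and FAP were not listed there. Of 12 leukocyte markers, CD14 (219 and 241 CPM) and CD68 were listed for SiHa and CD68 for MS751, while PTPRC, the pan-leukocyte gene, was unlisted in both. Of 12 endothelial markers, PECAM1 was listed for SiHa and FLT4 for MS751. PLIN1 was the adipocyte marker listed (SiHa), ACTA2 the muscle marker and SYP the neural marker, the latter pair in both lines.

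The lines differed at least 2-fold in 29.5% of the genes they shared. SiHa was higher for 1537 genes (13.8%) and lower for 1738 (15.6%). These shares are those to set beside the list counts below, with the 8.21% and 7.05% of genes listed for SiHa or MS751 only. Between the siDDX24-1 libraries 1031 of the higher genes (9.28% of all compared) and 1171 of the lower genes (10.5%) held. Past 4-fold there were 417 higher and 559 lower genes, of which 384 and 505 held. Past 16-fold 78 of 79 and 60 of 62 held, and past 64-fold all 16 higher and 8 lower genes did. Holding was scored at 2-fold whatever the size of the first difference, so larger differences had more room to hold. The SD over genes of the line difference was 1.22 on the log2 scale, against 0.67 for its change from one pair of libraries to the other. Across genes, which are not independent replicates and share library and line, the differences of the pairs had a Pearson r of 0.85. Spearman's rho between the difference and transcript GC content was -0.17 over 11108 genes, and -0.086 for the other pair. Genes lower in SiHa had a median transcript GC content of 54.4%, those higher one of 47.1%, so the difference moved with GC content. With the smooth trend on GC content removed, 1377 of the 1537 higher and 1501 of the 1738 lower genes stayed past 2-fold in the same direction.

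**Figure D1:**
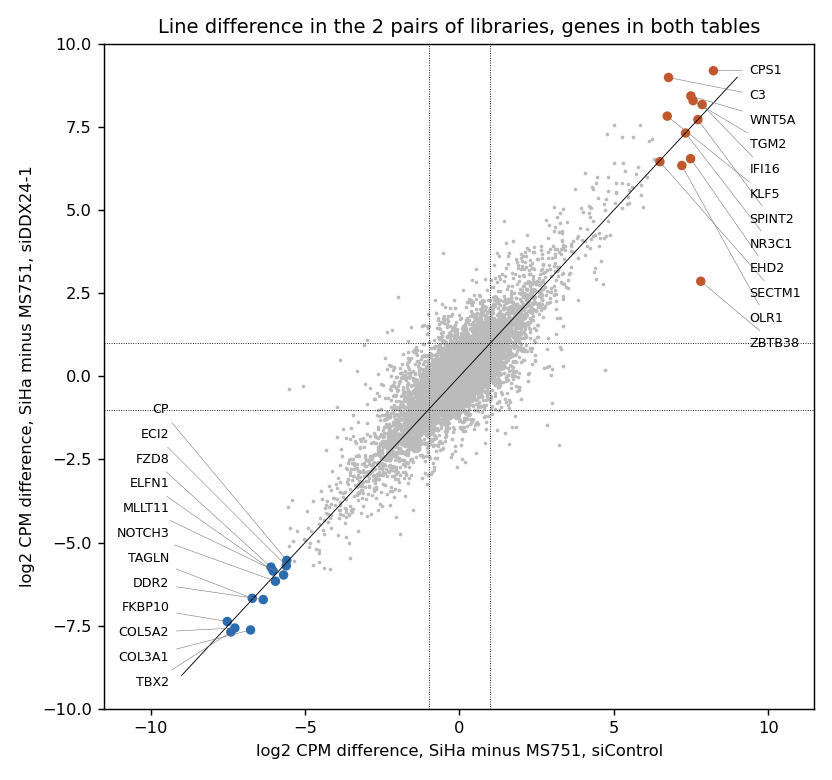
The log2 CPM difference of SiHa minus MS751 for each gene listed for both lines, between the siControl libraries (horizontal axis) and between the siDDX24-1 libraries (vertical axis), with the diagonal of equal values and dotted lines at 2-fold. The 12 highest (orange) and 12 lowest (blue) genes that held are named; ZBTB38 lies far below the diagonal, at 7.82 and 2.86.

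Keratins and other epithelial genes were high in SiHa and low or unlisted in MS751. KRT8 (ENSG00000170421, chromosome 12, 52897187 to 52949954, minus strand of GRCh38) had 1639.6 and 1442 CPM in SiHa and 31.0 and 20.96 CPM in MS751, a difference of 5.72, interval 5.59 to 5.87. Its filament partner KRT18 had 617 and 566 CPM in SiHa and 84.5 and 122 CPM in MS751 (difference 2.87, interval 2.78 to 2.96). For both keratins each SiHa library was far above each MS751 library. KRT7 (ENSG00000135480, chromosome 12, 52232520 to 52252186, plus strand), a keratin of glandular epithelia, was listed for SiHa only, with 1870.2 and 2058 CPM. So were KRT19 with 83.9 and 48.4 CPM and KRT17 with 1028 and 897 CPM. Of 5 simple keratin and glandular genes in both tables, 3 (KRT8, KRT18 and the mucin gene MUC1) were higher in SiHa (60%, all held, against 13.8% of all genes) and none lower. Of the others, 8 were listed for SiHa only, 1 for MS751 only and 25 of 39 for neither. The secreted protease inhibitor SLPI had 471 and 451 CPM in SiHa, the iron-binding secreted protein gene LCN2 7.96 and 6.35 CPM and the epithelial transcription factor EHF 36.9 and 35.9 CPM. CEACAM1, an adhesion molecule, was the gene of this list in the MS751 table alone. Exons of KRT8 and KRT18 overlap in the annotation, and keratins have processed pseudogenes and near-identical neighbours (KRT16 and KRT17), so single counts may be split between them.

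Squamous differentiation genes were in the SiHa table alone more often than in that of MS751 alone. Of 6 in both tables, 3 were higher in SiHa (2 held) and the others were within 2-fold, and of the rest 14 were listed for SiHa only, 1 for MS751 only and 24 of 45 for neither. The SiHa-only and MS751-only genes were 66.7% and 4.76% of the listed members, against 8.21% and 7.05% of all genes. TRIM29, a scaffold protein of stratified epithelia, had 458 and 546 CPM in SiHa, and LY6K, a surface protein found in squamous tumours, 240.3 and 209 CPM. The serpin gene SERPINB5 had 103 and 93.4 CPM and the elastase inhibitor gene PI3 96.1 and 68.5 CPM. SFN, which encodes the epithelial 14-3-3 protein, had 212 and 186 CPM in SiHa and 12.6 and 2.62 CPM in MS751 (difference 4.07, interval 3.85 to 4.30). PERP, a desmosome-associated p53 target, had 405 and 695 CPM in SiHa and 124 and 147 CPM in MS751 (difference 1.70, interval 1.63 to 1.78). Filaggrin (FLG), a late marker of the granular layer, was low in MS751 at 5.78 and 8.38 CPM. Of 6 desmosome genes in both tables, DSG2 (1.48 and 1.17), PKP2 (1.92 and 2.86) and PKP3 (2.30 and 2.83) were higher in SiHa and held. DSP, the plaque protein that anchors keratins (-0.37), JUP (0.49) and PKP4 (-0.50) were within 2-fold. PKP1 was listed for SiHa only, DSC2 for MS751 only and 5 of 13 for neither.

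Adhesion and polarity genes did not all go with the keratins. E-cadherin (CDH1), the main adhesion molecule of epithelia, was listed for SiHa only at 76.6 and 45.4 CPM, and P-cadherin (CDH3) at 35.7 and 29.1 CPM. The epithelial splicing regulators ESRP2 and ESRP1 were in the same table at 60.2 and 45.4 CPM and 5.23 and 4.01 CPM. SPINT2, an inhibitor of membrane-bound serine proteases, had 409.5 and 304 CPM in SiHa and 1.88 and 1.38 CPM in MS751, one of the 12 highest differences (7.72, interval 7.21 to 8.399). The tight junction gene CLDN1 had 47.5 and 60 CPM in SiHa and 5.55 and 4.58 CPM in MS751 (difference 3.08, interval 2.75 to 3.46). Other junction genes were lower in SiHa and held. Occludin (OCLN) had 5.29 and 2.76 CPM in SiHa and 20.4 and 74.99 CPM in MS751, and cingulin (CGN) 8.70 and 5.52 CPM in SiHa and 46.0 and 22.8 CPM in MS751. EPCAM, a surface marker of epithelia, was close in both lines, with 13.3 and 18.8 CPM in SiHa and 11.6 and 10.2 CPM in MS751. Of 19 in both tables, 4 were higher in SiHa (21.1%, 3 held) and 5 lower (26.3%, 4 held). The shares of all genes were 13.8% and 15.6%. Of the other list members, 9 were listed for SiHa only, 2 for MS751 only and 7 of 37 for neither. The SiHa-only and MS751-only genes were 30% and 6.67% of the listed members, against 8.21% and 7.05% of all genes. Junction and polarity genes had a median difference of -0.38 between the siControl and 0.11 between the siDDX24-1 libraries. Exons of ESRP2 overlap NFATC3, and those of SPINT2 overlap an unnamed gene.

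**Figure D2:**
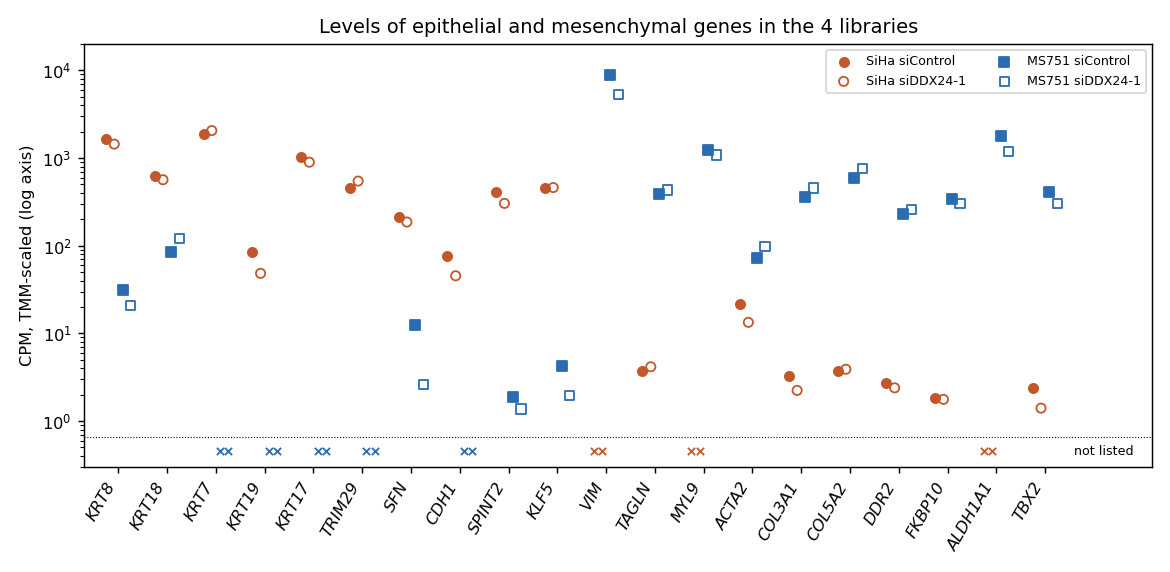
CPM (log axis) of 10 epithelial and 10 mesenchymal or developmental genes in the 4 libraries, circles for SiHa and squares for MS751, filled for siControl and open for siDDX24-1. The genes were picked, the epithelial ones being higher in or only in SiHa and the others higher in or only in MS751. Genes that went the other way, such as OCLN, CGN, LOX and TWIST1, are not shown. Crosses mark genes not listed for a line; for every gene with values in both lines the libraries of one line lie apart from those of the other.

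MS751 carried vimentin, contractile genes and some fibrillar collagens. Vimentin (VIM, ENSG00000026025, chromosome 10, 17228259 to 17237593, plus strand) was listed for MS751 only, with 8886 and 5329 CPM, the highest level of any gene in 1 table only. COL3A1 (ENSG00000168542, chromosome 2, 188974320 to 189012746, plus strand), a fibrillar collagen of soft tissue, had 3.24 and 2.24 CPM in SiHa and 359 and 455 CPM in MS751, a difference of -6.77, interval -7.20 to -6.42. COL5A2, which joins mixed fibrils, had 3.75 and 3.90 CPM in SiHa and 590.0 and 753 CPM in MS751 (difference -7.27, interval -7.67 to -6.95). FKBP10, a chaperone of procollagen folding, had 1.82 and 1.77 CPM in SiHa and 345 and 304 CPM in MS751, the lowest of the differences that held (-7.52, interval -8.12 to -7.07). Both SiHa libraries were close to the listing level for these collagen genes. The actin-binding smooth muscle gene TAGLN had 3.70 and 4.16 CPM in SiHa and 393 and 432 CPM in MS751 (difference -6.71, interval -7.11 to -6.38). Smooth muscle actin (ACTA2) had 21.4 and 13.4 CPM in SiHa and 72.8 and 98.3 CPM in MS751. The myosin light chain gene MYL9 at 1241 and 1081 CPM and calponin (CNN1) at 32.2 and 30.7 CPM were listed for MS751 only. N-cadherin (CDH2), a classic mesenchymal marker, was low in MS751, at 1.88 and 2.42 CPM.

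Other mesenchymal genes were higher in SiHa, so the list was mixed. Of 23 in both tables, 8 were higher in SiHa (34.8%, 7 held) and 7 lower (30.4%, 5 held). The shares of all genes were 13.8% and 15.6%. Of the other list members, 6 were listed for SiHa only, 8 for MS751 only and 7 of 44 for neither. The mesenchymal genes had a median of 0.082 at baseline and -0.044 in the other pair. LOX, which crosslinks collagen, had 704 and 475 CPM in SiHa and 44.1 and 15.5 CPM in MS751 (difference 3.99, interval 3.88 to 4.12). TWIST1 (2.09 and 3.24) and SNAI1 (1.496 and 2.21), transcription factors that drive epithelial to mesenchymal transition, were higher in SiHa and held. ZEB1 (0.75 and -0.62) and ZEB2 (-0.88 and -0.55), of the same group, were within 2-fold, ZEB2 just past it with the GC trend removed (-1.03). Fibronectin (FN1) was listed for SiHa only at 57.1 and 55.0 CPM, as was tenascin (TNC) at 195 and 166 CPM. TGFBI at 246 and 180.2 CPM and the gelatinase gene MMP2 at 73.3 and 52.1 CPM were in the SiHa table alone too. Exons of TAGLN overlap PCSK7, those of LOX SRFBP1, those of TNC DELEC1 and those of ACTA2 FAS.

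The 12 highest differences that held, taken among genes with 5 CPM or more in a siControl library, spanned metabolism, immunity and nuclear receptors. CPS1, the mitochondrial enzyme of the urea cycle (ENSG00000021826, chromosome 2, 210477682 to 210679107, plus strand), came first with 16533 and 25786 counts in SiHa and 41 and 34 in MS751, or 940.4 and 1342 CPM in SiHa and 3.08 and 2.23 CPM in MS751 (difference 8.23, interval 7.82 to 8.74). IFI16, a nuclear sensor of DNA (ENSG00000163565, chromosome 1, 158999968 to 159055155, plus strand), had 5156 and 5804 counts in SiHa and 16 and 15 in MS751, a difference of 7.86, interval 7.23 to 8.74. For both genes the MS751 libraries were at or below 3.08 CPM. Transglutaminase TGM2, which crosslinks matrix proteins, had 852 and 1006 CPM in SiHa and 4.43 and 3.14 CPM in MS751 (7.57, interval 7.22 to 7.98). WNT5A, a ligand of the non-canonical Wnt pathway, had 567 and 611 CPM in SiHa and 3.08 and 1.70 CPM in MS751 (7.50, interval 7.08 to 8.005). The caveolar ATPase gene EHD2 had 294 and 178 CPM in SiHa and 1.58 and 1.83 CPM in MS751 (7.49, interval 6.93 to 8.23). Receptors and factors that act in the nucleus followed. The glucocorticoid receptor gene NR3C1 had 178 and 219 CPM in SiHa and 1.05 and 1.31 CPM in MS751 (7.33, interval 6.66 to 8.28). The epithelial zinc finger factor KLF5 had 453 and 461 CPM in SiHa and 4.20 and 1.96 CPM in MS751 (6.73, interval 6.37 to 7.16). Complement component C3 had 1148 and 1598 CPM in SiHa and 10.4 and 3.08 CPM in MS751 (6.77, interval 6.54 to 7.03). The last members concern lipoproteins and immune contacts. The oxidised lipoprotein receptor gene OLR1 had 208 and 239 CPM in SiHa and 1.35 and 2.88 CPM in MS751 (7.20, interval 6.60 to 8.02) and SECTM1, a ligand of T and NK cells, 114 and 103 CPM in SiHa and 1.2 and 1.11 CPM in MS751 (6.49, interval 5.86 to 7.37). SPINT2, described above, and ZBTB38, which binds methylated DNA, complete the 12. ZBTB38 had 5897 and 3749 counts in SiHa and 19 and 409 in MS751, so its difference of 7.82 rested on the MS751 siControl library and was 2.86 in the other pair.

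The 12 lowest held differences included a developmental transcription factor and several receptors beside the collagens. TBX2, a T-box repressor of development (ENSG00000121068, chromosome 17, 61399896 to 61409466, plus strand), had 2.39 and 1.41 CPM in SiHa and 414 and 303 CPM in MS751 (difference -7.40, interval -7.91 to -7.00). The collagen receptor kinase gene DDR2 had 2.73 and 2.39 CPM in SiHa and 228 and 258 CPM in MS751 (-6.35, interval -6.83 to -5.97). The Wnt receptor gene FZD8 had 1.88 and 2.29 CPM in SiHa and 133 and 125 CPM in MS751 (-6.11, interval -6.69 to -5.66), and the Notch receptor gene NOTCH3 2.05 and 1.41 CPM in SiHa and 131 and 105 CPM in MS751 (-5.96, interval -6.52 to -5.53). All SiHa values of these 4 genes were below 3 CPM. The synaptic adhesion gene ELFN1 had 1.08 and 1.14 CPM in SiHa and 74.7 and 69.8 CPM in MS751 (-6.03, interval -6.85 to -5.46). MLLT11, known as a fusion partner in leukaemia, had 2.45 and 3.23 CPM in SiHa and 129.8 and 207 CPM in MS751 (-5.69, interval -6.20 to -5.29). Ceruloplasmin (CP), the copper ferroxidase of plasma, had 11.2 and 13.9 CPM in SiHa and 543 and 647 CPM in MS751 (-5.59, interval -5.81 to -5.39). ECI2 belongs to fatty acid oxidation, where it acts on unsaturated chains. It had 3.07 and 2.71 CPM in SiHa and 153 and 144 CPM in MS751 (-5.61, interval -6.05 to -5.25). Exons of TGM2 overlap RPRD1B, those of MLLT11 CDC42SE1, those of ECI2 TEX56P and those of CP HPS3.

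Genes listed for 1 line only ranged from just above the listing level to the highest expressed genes of a line. Of the 1077 for SiHa only, 52 reached 100 CPM in both libraries and 255 were under 2 CPM in at least 1. Of the 924 for MS751 only, 36 reached 100 CPM and 231 were under 2 CPM. Per kb of exon the highest siControl levels of SiHa-only genes belonged to the calcium-binding protein gene S100A6 (1190.1 and 837 CPM per kb) and to SLPI (789.9 and 756 CPM per kb). The top 12 by this measure held secreted inhibitors, keratins and metabolic enzymes. The kallikrein inhibitor gene SPINK6 had 551 and 476 CPM and TIMP3, an inhibitor of metalloproteinases, 1171 and 914 CPM. IGFBP4, which binds insulin-like growth factors, had 590.2 and 694 CPM and the membrane-associated protein gene BASP1 1233 and 1353 CPM. Cytidine deaminase (CDA) had 302 and 309 CPM. Argininosuccinate synthetase (ASS1), which like CPS1 belongs to the urea cycle, had 610.4 and 639 CPM, and the NADPH oxidase subunit gene CYBA 655 and 506 CPM. KRT7 and KRT17 belonged to that group too.

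Among MS751-only genes, VIM at 1723 and 1033 CPM per kb and ALDH1A1 at 622 and 421 CPM per kb led. ALDH1A1, a retinaldehyde dehydrogenase used as a marker of stem-like cells, had 1771 and 1198 CPM. ANKRD1, a muscle and YAP target gene, had 1083 and 1088 CPM. The stromelysins MMP10 (641 and 418 CPM) and MMP3 (203 and 356 CPM), neighbours on chromosome 11, degrade matrix proteins. Developmental regulators were present as well. BARX1, a homeobox gene of jaw and stomach development, had 186 and 119 CPM, and ID4, an inhibitor of helix-loop-helix factors, 193 and 164 CPM. SPRY1, a feedback inhibitor of receptor kinases, had 326 and 116 CPM. The cholesterol transfer gene STARD4 had 463 and 229 CPM, VMO1 76.4 and 43.4 CPM and the CDC42 effector gene CDC42EP5 74.2 and 19.5 CPM. CDC42EP5, SPRY1 and STARD4 were over 2-fold lower in the siDDX24-1 library of MS751 than in its siControl library, so their level depends on which library is read.

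**Figure D3:**
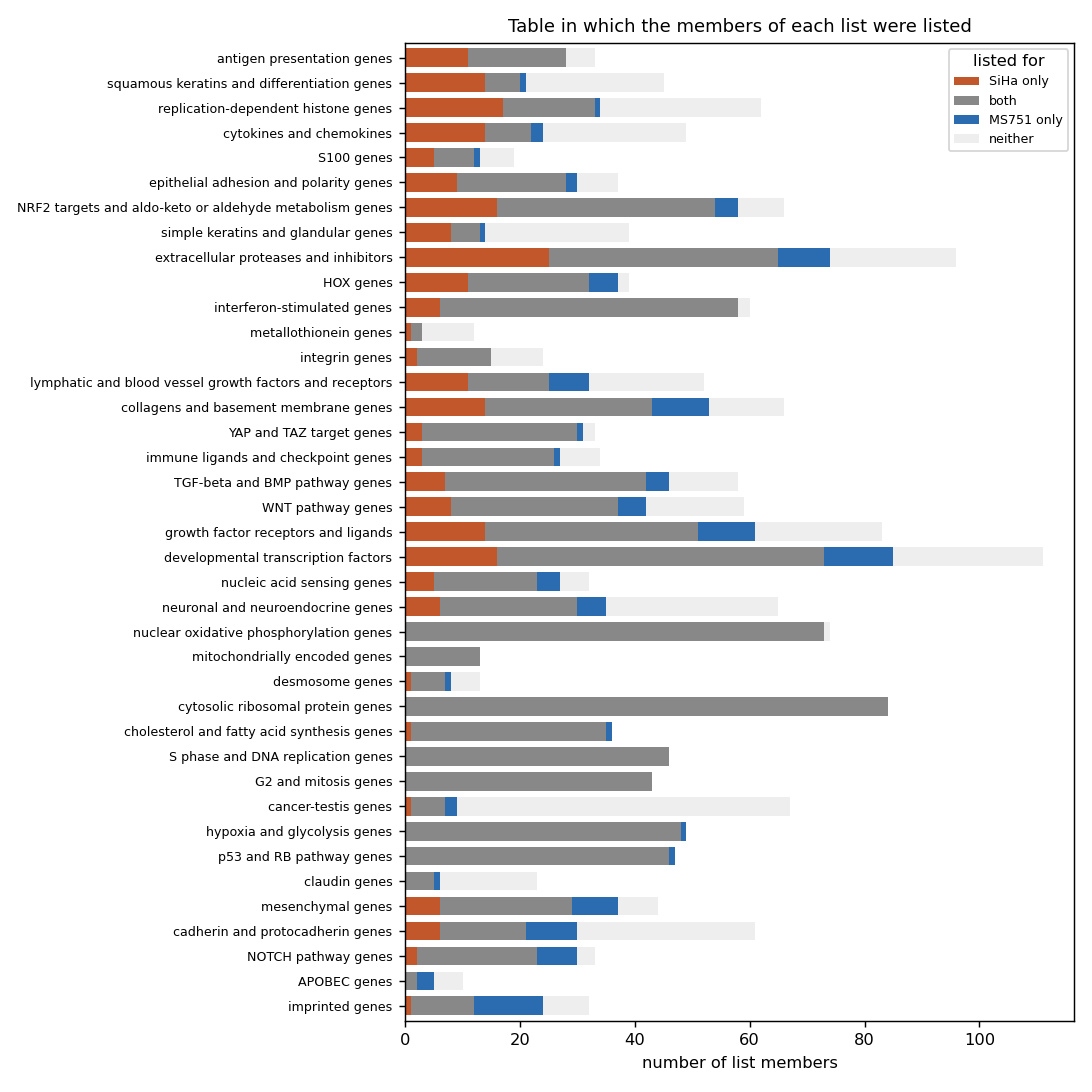
Number of members of each gene list that were listed for SiHa only (orange), both lines (grey), MS751 only (blue) or neither (light grey). Among lists of over 20 members, antigen presentation and squamous genes have the highest shares of SiHa-only members, and imprinted genes that of MS751-only members. These shares are of all members, those in neither table included. Of the listed members alone, 39.3% of antigen presentation and 66.7% of squamous genes are SiHa-only, and cytokine genes (58.3%) pass the former.

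Integrins were mostly higher in SiHa, while agrin was within 2-fold unless the GC trend was removed. Of 13 integrin genes in both tables, 8 were higher in SiHa (61.5%, 6 held) and 2 lower (both held), against 13.8% and 15.6% of all genes. ITGA11 and ITGB2 were listed for SiHa only and 9 of 24 for neither. Integrin genes showed a median difference of 1.63, and of 0.87 between the siDDX24-1 libraries. Their summed levels were close, with 2270 and 2062 CPM in SiHa and 2110 and 2197 CPM in MS751. The laminin receptor subunit gene ITGA3 had 216 and 190.0 CPM in SiHa and 23.6 and 23.3 CPM in MS751 (difference 3.19, interval 3.03 to 3.36). ITGB8, which activates TGF-beta, had 71.0 and 90.3 CPM in SiHa and 4.65 and 3.995 CPM in MS751 (3.92, interval 3.56 to 4.33), and the collagen receptor subunit gene ITGA2 64.7 and 59.0 CPM in SiHa and 12.7 and 6.09 CPM in MS751 (2.35, interval 2.12 to 2.59). ITGB4, the hemidesmosome subunit, was also higher in SiHa (1.65 and 2.29). ITGAV, the vitronectin receptor subunit, went the other way with 204 and 210.2 CPM in SiHa and 789.8 and 702 CPM in MS751 (-1.95, interval -2.01 to -1.90). AGRN, which encodes the heparan sulphate proteoglycan agrin (ENSG00000188157, chromosome 1, 1020123 to 1056118, plus strand), had 616 and 373 CPM in SiHa and 390.3 and 239 CPM in MS751. Its difference was 0.66, interval 0.61 to 0.71, and 0.64 between the siDDX24-1 libraries. With the GC trend removed it was 1.43, past 2-fold. LRP4, a receptor for agrin, had 3.92 and 1.35 CPM in SiHa and 46.7 and 62.9 CPM in MS751 (-3.55, interval -3.95 to -3.21). MUSK, the receptor kinase that signals with LRP4, was listed for MS751 only at 2.48 and 1.70 CPM.

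Collagen and basement membrane genes lay at both extremes. Of 29 in both tables, 10 were higher in SiHa (34.5%, 10 held) and 7 lower (24.1%, 6 held). The shares of all genes were 13.8% and 15.6%. Of the other list members, 14 were listed for SiHa only, 10 for MS751 only and 13 of 66 for neither. The matrix list had a median difference of 0.36 between the siControl and 0.64 between the siDDX24-1 libraries. COL7A1, the anchoring fibril collagen of stratified epithelium, had 352 and 223 CPM in SiHa and 7.13 and 1.44 CPM in MS751 (5.62, interval 5.34 to 5.94). NTN4, a laminin-related netrin, had 133 and 163 CPM in SiHa and 2.93 and 3.27 CPM in MS751 (5.48, interval 5.05 to 6.005), and COL12A1, which decorates fibrils, 432 and 692 CPM in SiHa and 16.1 and 17.1 CPM in MS751 (4.74, interval 4.55 to 4.95). LAMB3 (366 and 291 CPM), a chain of the laminin that anchors epithelia, was listed for SiHa only. COL18A1, the source of endostatin, was lower in SiHa at 24.9 and 13.7 CPM in SiHa and 125 and 68.5 CPM in MS751 (-2.32, interval -2.48 to -2.17), with exons that overlap SLC19A1. The proteoglycan gene SDC2 was listed for MS751 only at 46.1 and 52.0 CPM. The dystroglycan gene DAG1, a matrix receptor, had 152 and 4734 counts in SiHa and 3863 and 4619 in MS751. Its difference of -5.06 was -0.30 in the other pair, since the SiHa siControl library alone was low.

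Extracellular proteases and their inhibitors had more members in the SiHa table alone than in that of MS751 alone. Of 40 in both tables, 14 were higher in SiHa (35%, 11 held) and 8 lower (20%, 7 held), against 13.8% and 15.6% of all genes. Of the rest, 25 were listed for SiHa only, 9 for MS751 only and 22 of 96 for neither. The SiHa-only and MS751-only genes were 33.8% and 12.2% of the listed members, both above the 8.21% and 7.05% of all genes. Proteases and inhibitors had a median of -0.22 at baseline, 0.31 in the other pair and -0.00497 with the GC trend removed. SERPINE2, an inhibitor of thrombin and urokinase, had 259 and 186 CPM in SiHa and 4.35 and 3.41 CPM in MS751 (5.88, interval 5.52 to 6.30). The urokinase receptor gene PLAUR had 168 and 137 CPM in SiHa and 35.5 and 19.1 CPM in MS751 (2.24, interval 2.10 to 2.38), while urokinase itself (PLAU, whose exons overlap C10orf55) was listed for MS751 only at 57.5 and 28.0 CPM. The receptor was thus higher in the line that has no listed value for the enzyme. The membrane metalloproteinase gene MMP14 was listed for SiHa only at 228 and 207 CPM, and SERPINF1, which encodes the anti-angiogenic factor PEDF, for MS751 only at 242 and 166 CPM. ADAMTS1, a proteoglycan-cleaving protease, had 46.4 and 39.97 CPM in SiHa and 282 and 314 CPM in MS751 (-2.60, interval -2.71 to -2.49). Collagenase MMP1 had 1.65 and 1.72 CPM in SiHa and 17.2 and 20.8 CPM in MS751 (-3.33, interval -3.99 to -2.82).

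Vessel growth factors differed member by member. VEGFA, the main factor of blood vessel growth (ENSG00000112715, chromosome 6, 43770184 to 43786487, plus strand), had 450.2 and 354 CPM in SiHa and 96.3 and 50.2 CPM in MS751 (2.22, interval 2.14 to 2.31). VEGFC, the main lymphatic growth factor (ENSG00000150630, chromosome 4, 176683538 to 176792727, minus strand), was listed for SiHa only at 38.6 and 26.8 CPM. VEGFB had 60.4 and 54.3 CPM in SiHa and 132 and 60.2 CPM in MS751 (-1.12, interval -1.24 to -1.01) and did not hold (-0.15), and with the GC trend removed the difference was -0.46. The VEGF and semaphorin receptor gene NRP1 had 45.8 and 55.6 CPM in SiHa and 1.58 and 2.10 CPM in MS751 (4.81, interval 4.24 to 5.56). Thrombospondin (THBS1), an angiogenesis inhibitor whose exons overlap FSIP1, had 142 and 169.8 CPM in SiHa and 1.73 and 1.77 CPM in MS751 (6.32, interval 5.78 to 7.03). So the factor VEGFA and the inhibitor THBS1 were both higher in SiHa. Listed for MS751 only were the VEGFC receptor gene FLT4 at 45.8 and 33.9 CPM, the adrenomedullin receptor gene CALCRL at 58.1 and 58.8 CPM, PDGFB at 20.3 and 17.5 CPM and PGF at 15.1 and 7.86 CPM. CCN2, a matricellular factor, had 43.1 and 43.1 CPM in SiHa and 833 and 905 CPM in MS751 (-4.27, interval -4.38 to -4.17). The chemokine receptor gene CCR10, whose exons overlap CNTNAP1, had 3.53 and 1.35 CPM in SiHa and 83.8 and 52.7 CPM in MS751 (-4.55, interval -4.96 to -4.20). Of 14 genes of this list in both tables, 4 were higher in SiHa (28.6%, 4 held) and 6 lower (42.9%, 4 held). The shares of all genes were 13.8% and 15.6%. Of the other list members, 11 were listed for SiHa only, 7 for MS751 only and 20 of 52 for neither. The vessel list showed a median difference of -0.83, and of 0.0014 between the siDDX24-1 libraries.

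Receptors and ligands of growth signals were split between the lines. Of 37 in both tables, 10 were higher in SiHa (27.0%, 10 held) and 12 lower (32.4%, 11 held). The shares of all genes were 13.8% and 15.6%. Of the other list members, 14 were listed for SiHa only, 10 for MS751 only and 22 of 83 for neither. Growth factor genes had a median difference of -0.34 between the siControl and -0.33 between the siDDX24-1 libraries. MET, the receptor of hepatocyte growth factor, had 93.6 and 83.5 CPM in SiHa and 11.3 and 12.7 CPM in MS751 (3.05, interval 2.81 to 3.31), while the ligand HGF was listed for MS751 only at 229 and 171 CPM. EGFR, the epidermal growth factor receptor, had 122 and 141 CPM in SiHa and 41.0 and 35.2 CPM in MS751 (1.57, interval 1.43 to 1.71), and its ligand TGFA 20.9 and 17.9 CPM in SiHa and 3.83 and 2.82 CPM in MS751 (2.43, interval 2.02 to 2.90). The further EGFR ligands EREG (346 and 372 CPM) and AREG (33.1 and 40.2 CPM) were listed for SiHa only. FGFR3, a fibroblast growth factor receptor, was lower in SiHa, with 4.04 and 3.43 CPM in SiHa and 38.9 and 25.1 CPM in MS751 (-3.25, interval -3.65 to -2.91). Also lower in SiHa were MERTK (-2.86 and -4.14), a receptor for dying cells, and PTK7 (-2.54 and -2.24), a Wnt co-receptor. RET, the receptor of glial-derived factors, was listed for MS751 only at 32.9 and 21.4 CPM and the ephrin receptor gene EPHA5 at 83.4 and 52.5 CPM.

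Wnt, Notch and TGF-beta genes showed opposite members within each pathway. Of 29 Wnt genes in both tables, 5 were higher in SiHa (17.2%, 4 held) and 9 lower (31.0%, 8 held). The shares of all genes were 13.8% and 15.6%. Of the other list members, 8 were listed for SiHa only, 5 for MS751 only and 17 of 59 for neither. Wnt genes had a median of -0.14 at baseline and 0.040 in the other pair. The receptor genes FZD2 (-2.24 and -1.84), FZD5 (-2.32 and -1.49) and LGR4 (-2.06 and -1.77) were lower in SiHa, as was FZD8, and the secreted inhibitor gene SFRP1 (3.07 and 5.10) was higher, as was WNT5A. The inhibitor gene DKK1 was listed for SiHa only at 350.3 and 257 CPM, and AXIN2, a target of beta-catenin whose exons overlap an unnamed gene, for MS751 only at 12.8 and 8.78 CPM. Among 21 Notch genes in both tables, 7 were lower in SiHa (33.3%, 5 held) and 1 higher (4.76%, DTX4, which held). The shares of all genes were 15.6% and 13.8%. JAG1, a ligand, and LFNG, a modifier of the receptors, were listed for SiHa only, 7 Notch genes for MS751 only and 3 of 33 for neither. The Notch target gene NRARP had 3.36 and 2.50 CPM in SiHa and 29.6 and 18.2 CPM in MS751 (-3.12, interval -3.56 to -2.74), and the target HES4 also held (-3.20 and -1.95). The target HEY1 had 47.9 and 21.9 CPM and the ligand DLL1 18.1 and 8.19 CPM in the MS751 table alone. Notch genes showed a median difference of -0.38, of -0.20 between the siDDX24-1 libraries and of -0.12 with the GC trend removed.

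TGF-beta and BMP genes were similarly divided. Of 35 in both tables, 8 were higher in SiHa (22.9%, 8 held) and 9 lower (25.7%, 7 held). The shares of all genes were 13.8% and 15.6%. Of the other list members, 7 were listed for SiHa only, 4 for MS751 only and 12 of 58 for neither. The TGF-beta list had a median difference of -0.087 between the siControl and -0.19 between the siDDX24-1 libraries. ID1, a BMP target, had 1979.8 and 2093 CPM in SiHa and 233 and 233 CPM in MS751 (3.09, interval 3.04 to 3.14), while its relative ID2 had 23.1 and 49.5 CPM in SiHa and 360.2 and 175 CPM in MS751 (-3.96, interval -4.11 to -3.82). SMAD3, which carries the TGF-beta signal (2.24 and 2.15), and the receptor gene TGFBR2 (1.39 and 1.31) were higher in SiHa and held.

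Interferon-stimulated genes were higher in SiHa in the siControl libraries, and less so in the siDDX24-1 libraries. These antiviral genes are switched on by interferon through STAT and IRF factors that bind the interferon-stimulated response element, a pair of GAAA blocks. Of 52 in both tables, 24 were higher in SiHa (46.2%, against 13.8% of all genes), of which 13 held, and 2 lower (DHX58 and ISG20, both held). Of the rest, 6 were listed for SiHa only, 0 for MS751 only and 2 of 60 for neither. The interferon-stimulated genes had a median of 0.82 at baseline and 0.26 in the other pair. The summed level of the list was 5492 and 3806 CPM in SiHa and 3293 and 2804 CPM in MS751. Promoters are shown for the higher and held members whose 250 bases before the annotated start hold the core GAAANNGAAA on either strand (TTTCNNTTTC when read on the other), to set the letters beside the levels of the genes. The sequences are from RefSeq on GRCh38.p14. The core was present in 25 of the 45 list promoters in that table (55.6%) and in 2.27% of the 10603 promoters of listed genes, and 5 of the 10 higher and held members with a promoter had it. Each stretch reads along the gene, 5′ to 3′, with every match in capitals and matches merged where they overlap. SAMD9 is chr7:93118091-93118130, minus strand, IFI6 is chr1:27672261-27672363, minus strand, PLSCR1 is chr3:146544662-146544701, minus strand, HERC5 is chr4:88456979-88457069, plus strand and IFIH1 is chr2:162318685-162318858, minus strand.
SAMD9: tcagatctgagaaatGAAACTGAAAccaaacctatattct
IFI6: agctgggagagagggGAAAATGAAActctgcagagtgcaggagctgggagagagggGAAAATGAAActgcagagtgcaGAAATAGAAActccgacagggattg
PLSCR1: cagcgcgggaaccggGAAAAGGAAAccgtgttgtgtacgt
HERC5: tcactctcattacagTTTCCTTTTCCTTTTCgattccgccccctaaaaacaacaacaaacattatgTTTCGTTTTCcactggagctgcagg
IFIH1: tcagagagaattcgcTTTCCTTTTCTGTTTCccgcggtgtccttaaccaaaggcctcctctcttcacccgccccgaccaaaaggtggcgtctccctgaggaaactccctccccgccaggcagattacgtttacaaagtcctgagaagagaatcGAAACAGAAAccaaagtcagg
A match says that these letters are there and does not show that a factor bound them.

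These 5 genes were higher in SiHa in both pairs of libraries by the way they were chosen, which says nothing about the core. IFI6, a mitochondrial antiviral protein with 3 matches, had 502 and 208 CPM in SiHa and 81.6 and 36.2 CPM in MS751 (2.62, interval 2.53 to 2.71). SAMD9, an antiviral restriction factor, had 65.3 and 37.2 CPM in SiHa and 8.55 and 7.14 CPM in MS751 (2.92, interval 2.65 to 3.22), and PLSCR1, a scramblase that restricts viruses, 99.7 and 67.4 CPM in SiHa and 24.1 and 23.6 CPM in MS751 (2.05, interval 1.88 to 2.23). The ISG15 ligase gene HERC5 had 45.7 and 41.0 CPM in SiHa and 13.1 and 16.4 CPM in MS751 (1.80, interval 1.56 to 2.04). IFIH1, which encodes the double-stranded RNA sensor MDA5, had 39.5 and 30.0 CPM in SiHa and 12.6 and 12.5 CPM in MS751 (1.64, interval 1.40 to 1.90). Further held members were effectors against viral replication. The GTPase gene MX1, which blocks influenza virus, had 58.2 and 20.8 CPM in SiHa and 2.25 and 2.95 CPM in MS751 (4.66, interval 4.17 to 5.27), and OAS2, which makes the activator of RNase L, 86.3 and 41.8 CPM in SiHa and 10.1 and 6.81 CPM in MS751 (3.08, interval 2.84 to 3.36). MX2 was listed for SiHa only at 36.9 and 14.5 CPM, IFI44L at 30.4 and 10.8 CPM and TRIM22, whose exons overlap OR56B1, at 23.4 and 9.73 CPM. IRF7, the main regulator of interferon genes, was in the same table at 26.6 and 17.1 CPM. IFIT1 (1.21 and 0.37), OAS3 (1.06 and 0.012) and HERC6 (1.49 and -0.13) were higher between the siControl libraries and did not hold.

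Of the cGAS and STING route of sensing DNA, the genes STING1 and CGAS were listed for SiHa only. STING1, the adaptor of this route, had 57.1 and 50.01 CPM, and CGAS, the enzyme that feeds it and whose exons overlap DDX43, 37.1 and 36.0 CPM. RIGI, the sensor of viral RNA ends, had 82.7 and 55.9 CPM in SiHa and 12.1 and 12.9 CPM in MS751 (2.77, interval 2.54 to 3.02). MYD88, the adaptor of Toll-like receptors, had 66.6 and 61.9 CPM in SiHa and 2.33 and 1.24 CPM in MS751 (4.80, interval 4.33 to 5.40). TLR4, whose exons overlap an unnamed gene, was listed for SiHa only at 42.0 and 37.8 CPM, and the inflammasome gene NLRP1 for MS751 only at 79.4 and 56.1 CPM. Of 18 sensing genes in both tables, 5 were higher in SiHa (27.8%, 4 held) and 2 lower (11.1%, 2 held). The shares of all genes were 13.8% and 15.6%. Of the other list members, 5 were listed for SiHa only, 4 for MS751 only and 5 of 32 for neither. The sensing list showed a median difference of 0.16, and of 0.028 between the siDDX24-1 libraries.

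Of 33 antigen presentation genes, 11 were listed for SiHa only and 0 for MS751 only. The SiHa-only genes were 39.3% of the 28 listed members, against 8.21% of all genes. With so few members, 0 for MS751 only lies near the 7.05% of all genes. The class I genes HLA-B (0.19 and 0.77) and HLA-C (-0.74 and 0.28), whose exons overlap in the annotation, were within 2-fold. Class II genes, usual in antigen-presenting cells, were listed for SiHa only and at low levels. HLA-DRA had 18.9 and 18.9 CPM, HLA-DRB1 40.4 and 23.7 CPM, their regulator CIITA, whose exons overlap DEXI, 14.4 and 10.4 CPM and the invariant chain gene CD74 6.997 and 8.59 CPM. HLA alleles differ between people and from the reference, and how far this sets the counts was not tested. The peptide trimming enzyme gene ERAP2 was lower in SiHa at 3.58 and 2.24 CPM in SiHa and 46.5 and 38.9 CPM in MS751 (-3.68, interval -4.10 to -3.32). Of 17 in both tables, 2 were higher (NLRC5, which held, and B2M, which did not) and 3 lower (2 held), and 5 were in neither. Antigen presentation genes had a median difference of 0.19 between the siControl and 0.35 between the siDDX24-1 libraries.

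Cytokine genes were also in the SiHa table alone more often than in that of MS751 alone. Of 49, 14 were listed for SiHa only, 2 for MS751 only (CXCL11 and IL12A), 8 for both and 25 for neither. The SiHa-only and MS751-only genes were 58.3% and 8.33% of the listed members, against 8.21% and 7.05% of all genes. IL6, an inflammatory cytokine whose exons overlap STEAP1B, had 112 and 72.1 CPM, and IL18 41.4 and 41.9 CPM. CCL28, which attracts lymphocytes to mucosa, had 86.1 and 71.5 CPM, and the neutrophil chemokine genes CXCL1 and CXCL8 had 36.6 and 35.0 CPM and 33.3 and 10.5 CPM. Of those in both tables, IL11 (-2.12 and -3.01), LIF (-1.71 and -2.57) and TSLP (-1.90 and -1.503) were lower in SiHa and held. CLCF1 (2.45 and 2.23), whose exons overlap an unnamed gene, IL32 (1.71 and 2.10) and CSF1 (1.16 and 1.05) were higher and held. Cytokine genes had a median of -0.59 at baseline, 0.064 in the other pair and -0.19 with the GC trend removed.

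Surface ligands of immune cells were more often higher in SiHa than lower. Of 23 in both tables, 9 were higher (39.1%, 8 held) and 5 lower (21.7%, 3 held), against 13.8% and 15.6% of all genes. Of the other list members, 3 were listed for SiHa only, 1 for MS751 only and 7 of 34 for neither. The immune ligand list showed a median difference of 0.15, and of 0.0078 between the siDDX24-1 libraries. The adhesion molecule gene ICAM1 had 236 and 229 CPM in SiHa and 6.08 and 3.995 CPM in MS751 (5.27, interval 4.96 to 5.62), and CD55, which protects cells from complement, 376 and 343 CPM in SiHa and 30.9 and 22.6 CPM in MS751 (3.60, interval 3.46 to 3.75). CD274, which encodes the checkpoint ligand PD-L1, was low in both lines and lower in SiHa, with 1.93 and 2.08 CPM in SiHa and 6.23 and 5.70 CPM in MS751. The NK cell ligand gene MICB had 41.6 and 29.4 CPM in SiHa and 169 and 116 CPM in MS751 (-2.02, interval -2.14 to -1.90).

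**Figure D4:**
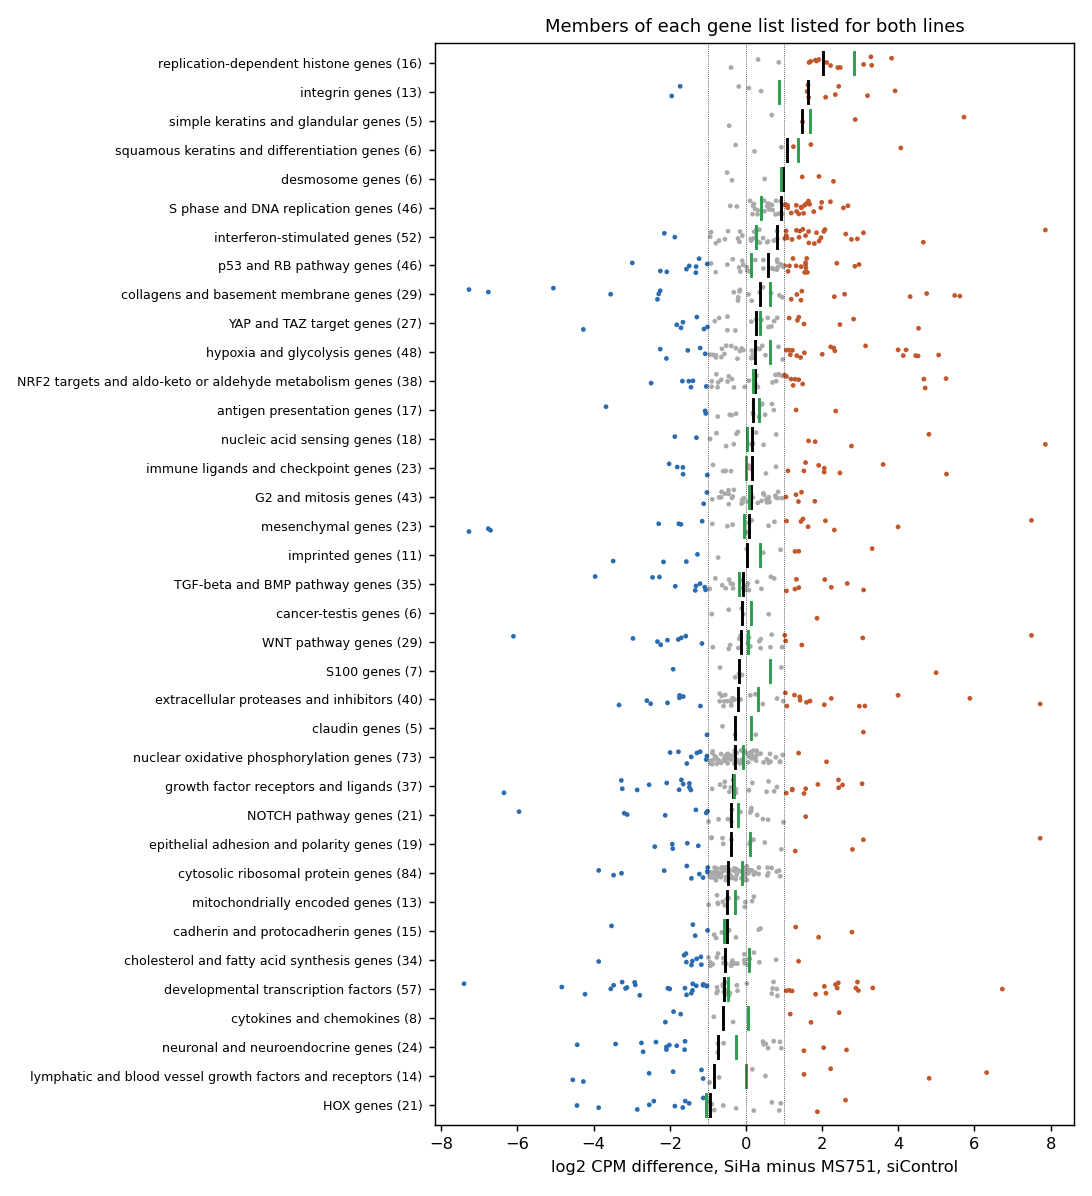
Log2 CPM differences of SiHa minus MS751 between the siControl libraries for list members in both tables (number in parentheses), 1 point per gene, orange and blue past 2-fold. Black bars are list medians and green bars the medians between the siDDX24-1 libraries; among lists with 10 or more such members, histone and integrin genes have the highest siControl medians and HOX genes the lowest.

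Developmental transcription factors made up a different set in each line. Of 57 in both tables, 23 were lower in SiHa (40.4%, 19 held) and 14 higher (24.6%, 12 held). The shares of all genes were 15.6% and 13.8%. Of the other list members, 16 were listed for SiHa only, 12 for MS751 only and 26 of 111 for neither. These transcription factors had a median difference of -0.58 between the siControl and -0.46 between the siDDX24-1 libraries. PAX9, a factor of pharyngeal and tooth development, had 6.997 and 4.94 CPM in SiHa and 202 and 160.1 CPM in MS751 (-4.84, interval -5.12 to -4.59). The nuclear receptor gene NR2F1 had 39.6 and 32.6 CPM in SiHa and 441 and 201 CPM in MS751 (-3.47, interval -3.59 to -3.36). The distal-less genes DLX2 (-3.16 and -2.64) and DLX6 (-3.55 and -2.88) and the eye regulator PAX6 (-3.25 and -3.16) were also lower in SiHa and held. TBX1 (166 and 70.9 CPM), ETV1 (60.8 and 57.0 CPM), HAND2 (25.2 and 12.8 CPM), a regulator of limb, heart and uterine stroma, and CDX2 (18.6 and 13.2 CPM), the intestinal homeobox gene, were listed for MS751 only. In SiHa, beside KLF5, RUNX1 (3.33 and 4.08), TBX3 (2.93 and 3.23) and the epidermal factors TFAP2A (2.95 and 3.82) and TFAP2C (2.42 and 2.58) were higher and held. GATA3 (25.3 and 25.3 CPM), a keratinocyte and luminal factor, PAX8 (17.98 and 18.01 CPM), a factor of the Müllerian tract, and FOXF1 (40.9 and 37.2 CPM) were listed for SiHa only. Exons of PAX6 overlap ELP4, those of PAX9 SLC25A21 and those of TBX1 GNB1L.

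HOX genes, which record position along the body axis, differed in their summed levels by cluster. The HOXB genes summed to 119.8 and 115.4 CPM in SiHa against 696 and 507 CPM in MS751. The HOXC genes summed to 118.9 and 124.9 CPM against 284 and 331 CPM, and without HOXC10 to 107 and 112 CPM against 114 and 181 CPM, so HOXC10 made up most of that siControl gap. The other clusters went the opposite way, with 229 and 222 CPM against 84.5 and 41.9 CPM for HOXA and 103.7 and 96.1 CPM against 40.4 and 28.8 CPM for HOXD. HOXB2 had 6.94 and 7.49 CPM in SiHa and 152 and 98.2 CPM in MS751 (-4.44, interval -4.73 to -4.19), HOXB9 17.98 and 19.8 CPM in SiHa and 65.7 and 74.2 CPM in MS751 (-1.87, interval -2.06 to -1.68) and HOXC10 11.55 and 13.4 CPM in SiHa and 169 and 149.9 CPM in MS751 (-3.87, interval -4.09 to -3.67). HOXB5 (102 and 48.7 CPM) and HOXB8 (49.6 and 41.9 CPM) were listed for MS751 only. HOXA10, a regulator of uterine development, had 29.7 and 23.1 CPM in SiHa and 4.80 and 5.24 CPM in MS751 (2.61, interval 2.25 to 3.03). HOXA7 (48.5 and 45.6 CPM), HOXA9 (43.1 and 43.2 CPM), HOXD10 (37.1 and 35.5 CPM) and HOXD13 (12.2 and 14.9 CPM) were listed for SiHa only. Of 21 in both tables, 10 were lower in SiHa (47.6%) and 2 higher (9.52%), all held. The shares of all genes were 15.6% and 13.8%. Of the other list members, 11 were listed for SiHa only, 5 for MS751 only and 2 of 39 for neither. HOX genes had a median of -0.96 at baseline and -1.06 in the other pair. Exons of HOXD10 overlap HOXD11, and those of HOXA9, HOXA10 and HOXC10 overlap unnamed genes.

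Imprinted genes, which are read from 1 parental copy, were listed for MS751 only more often than genes at large. Of 32, 12 were listed for MS751 only (50% of those listed, against 7.05% of all genes), PLAGL1 for SiHa only at 59.5 and 34.4 CPM, 11 for both and 8 for neither. The growth suppressor gene NDN had 66.5 and 58.2 CPM in MS751, and SNRPN, of the same region of chromosome 15, 139.5 and 136 CPM. NLRP2 had 59.2 and 76.6 CPM, and the growth factor gene IGF2 11.3 and 3.60 CPM, in the same line. GRB10, an inhibitor of insulin signalling, was lower in SiHa at 4.27 and 4.06 CPM in SiHa and 48.5 and 65.0 CPM in MS751 (-3.49, interval -3.87 to -3.16). MEST was higher in SiHa at 70.6 and 70.9 CPM in SiHa and 7.05 and 4.91 CPM in MS751 (3.31, interval 3.02 to 3.64). Of those in both tables, 3 were higher in SiHa (3 held) and 4 lower (3 held). Imprinted genes showed a median difference of 0.019, and of 0.36 between the siDDX24-1 libraries. Exons of SNRPN overlap SNURF, those of IGF2 INS-IGF2 and those of MEST COPG2, and the allele of origin was not measured.

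Neuronal and neuroendocrine genes were lower in SiHa more often than higher. Of 24 in both tables, 11 were lower (45.8%, 10 held) and 3 higher (12.5%, all held), against 15.6% and 13.8% of all genes. Of the other list members, 6 were listed for SiHa only, 5 for MS751 only and 30 of 65 for neither. The neuronal list had a median difference of -0.74 between the siControl and -0.26 between the siDDX24-1 libraries. The ubiquitin hydrolase gene UCHL1 had 8.87 and 9.32 CPM in SiHa and 193 and 233 CPM in MS751 (-4.43, interval -4.68 to -4.21), and MAPT, which encodes the microtubule protein tau, 10.4 and 3.28 CPM in SiHa and 112 and 26.6 CPM in MS751 (-3.42, interval -3.66 to -3.21). The neurofilament gene NEFL was listed for SiHa only at 106 and 61.8 CPM. Another neurofilament gene, NEFH, was higher in SiHa at 407 and 509 CPM in SiHa and 142 and 183 CPM in MS751 (1.52, interval 1.45 to 1.595). CHGA, GFAP and RBFOX3, which mark neuroendocrine, glial and mature neuronal cells, were listed for neither line.

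Cancer-testis genes were mostly unlisted (58 of 67). PRAME (163 and 150.1 CPM) and TEX15 (21.1 and 43.2 CPM) were listed for MS751 only and LY6K for SiHa only, and of the 6 in both tables ATAD2 was higher in SiHa and did not hold. The APOBEC cytidine deaminase genes that edit viral DNA were in the MS751 table alone in 3 cases, APOBEC3B at 105 and 113 CPM, APOBEC3D at 10.95 and 7.92 CPM and APOBEC3A at 1.28 and 1.38 CPM. APOBEC3C (-0.71) and APOBEC3F (-0.75, and -1.34 in the other pair) were within 2-fold at baseline, and 5 of 10 were in neither table. Exons of APOBEC3A and APOBEC3B overlap, and those of APOBEC3C and APOBEC3D overlap an unnamed gene.

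Replication-dependent histone genes, which are made in S phase, were higher in SiHa. Of 16 in both tables, 13 were higher (81.2%, all held, against 13.8% of all genes) and none lower. Of the rest, 17 were listed for SiHa only, 1 for MS751 only and 28 of 62 for neither. Histone genes had a median of 2.02 at baseline and 2.84 in the other pair. The core histone genes H2BC21 and H2AC6 had 109 and 132 CPM in SiHa and 7.65 and 7.40 CPM in MS751 (3.82, interval 3.55 to 4.14) and 55.2 and 88.4 CPM in SiHa and 5.55 and 6.81 CPM in MS751 (3.30, interval 2.97 to 3.68). The linker histone gene H1-2 had 141 and 241 CPM in SiHa and 26.4 and 16.1 CPM in MS751 (2.41, interval 2.25 to 2.58). Most of these transcripts end without a poly(A) tail and have near-identical copies. The part of RNA selection or of split counts in this difference was not tested.

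Genes of S phase and DNA replication were higher in SiHa for 21 of 46 (45.7%, against 13.8% of all genes), with none lower. Among these 21, 8 held. The replication list showed a median difference of 0.92, and of 0.40 between the siDDX24-1 libraries. MCM4, a subunit of the replicative helicase, had 505 and 643 CPM in SiHa and 78.8 and 144 CPM in MS751 (2.68, interval 2.59 to 2.77), and MCM2, whose exons overlap TPRA1, 324 and 450.4 CPM in SiHa and 81.7 and 156 CPM in MS751 (1.99, interval 1.90 to 2.08). Both were higher in the siDDX24-1 than in the siControl library of each line. Of 43 mitosis genes, 5 were higher (11.6%, near the 13.8% of all genes, 4 held) and 2 lower (MAD2L1, which held, and CKS1B, which did not). Mitosis genes had a median difference of 0.13 between the siControl and 0.071 between the siDDX24-1 libraries.

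Cell-cycle inhibitors and RB pathway genes included large differences. Of 46 in both tables, 15 were higher in SiHa (32.6%, 7 held) and 9 lower (19.6%, 5 held), with CCND2 listed for MS751 only. The lower share lay near the 15.6% of all genes, and the higher share above their 13.8%. This pathway had a median of 0.57 at baseline and 0.14 in the other pair. CDKN2A, which encodes the inhibitor p16 and rises when RB is inactive (ENSG00000147889, chromosome 9, 21967753 to 21995301, minus strand), had 161 and 189 CPM in SiHa and 22.1 and 14.1 CPM in MS751 (2.86, interval 2.69 to 3.04). Its neighbour CDKN2B, which encodes a related inhibitor, had 44.5 and 49.9 CPM in SiHa and 5.63 and 8.58 CPM in MS751 (2.97, interval 2.64 to 3.34). CDKN1A, the p53 target that encodes p21, had 373 and 246 CPM in SiHa and 71.3 and 54.4 CPM in MS751 (2.38, interval 2.29 to 2.49), and RB1 141 and 176 CPM in SiHa and 46.0 and 58.5 CPM in MS751 (1.61, interval 1.49 to 1.74). These negative regulators were named because they were higher and held. The D-type cyclins, which act against RB, were not higher past 2-fold. Cyclin D1 (CCND1) had 38.5 and 19.7 CPM in SiHa and 183 and 287 CPM in MS751 (-2.25, interval -2.38 to -2.13), cyclin D2 (CCND2) was at 208 and 136 CPM in MS751 and cyclin D3 (CCND3) was within 2-fold (0.10 and 0.20). E2F5, a partner of RB relatives, had 4.38 and 4.32 CPM in SiHa and 35.1 and 34.5 CPM in MS751 (-2.99, interval -3.37 to -2.65), while the activator E2F1 was higher in SiHa (1.45 and 1.40). Exons of CCND1 overlap LTO1, those of CCND2 an unnamed gene and those of E2F5 RBIS.

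Hypoxia and glycolysis genes were higher in SiHa for 18 of 48 (37.5%, 15 held) and lower for 5 (10.4%, 3 held). The shares of all genes were 13.8% and 15.6%, so the lower share was below that of all genes. The hypoxia list showed a median difference of 0.25, and of 0.64 between the siDDX24-1 libraries. PLOD2, a collagen lysyl hydroxylase, had 858 and 760.0 CPM in SiHa and 25.7 and 13.5 CPM in MS751 (5.06, interval 4.91 to 5.22). Carbonic anhydrase CA9, which regulates pH, had 125 and 104 CPM in SiHa and 5.63 and 1.57 CPM in MS751 (4.46, interval 4.14 to 4.82), and the oxygen sensor gene EGLN3 110.1 and 77.3 CPM in SiHa and 6.23 and 3.54 CPM in MS751 (4.13, interval 3.83 to 4.48). NDRG1, a stress gene, had 1106 and 711 CPM in SiHa and 59.9 and 20.4 CPM in MS751 (4.20, interval 4.10 to 4.31). The hypoxia factor genes themselves were higher in SiHa. HIF1A had 1093 and 1575 CPM in SiHa and 217 and 259.8 CPM in MS751 (2.33, interval 2.28 to 2.39), and EPAS1 123 and 146 CPM in SiHa and 5.33 and 9.63 CPM in MS751 (4.52, interval 4.19 to 4.90). Of the glycolytic enzymes, GPI (3.14 and 2.49) and PKM (2.002 and 1.87) were higher in SiHa, and LDHB (-1.07 and -1.75) and ENO2 (-2.09 and -3.38) lower. The glucose transporter gene SLC2A3 was listed for MS751 only at 343 and 139.9 CPM. Exons of CA9 overlap ARHGEF39 and those of GPI and LDHB unnamed genes.

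Detoxifying enzymes of the aldo-keto reductase and aldehyde dehydrogenase families differed by large amounts, and not all in one direction. ALDH1A1, described above, was listed for MS751 only, while the members that follow were higher in or only in SiHa. AKR1B1, aldose reductase, had 5598 and 4975 CPM in SiHa and 215 and 154 CPM in MS751 (4.70, interval 4.65 to 4.76), and the aldehyde dehydrogenase gene ALDH3B1 88.1 and 70.1 CPM in SiHa and 2.25 and 2.03 CPM in MS751 (5.25, interval 4.77 to 5.86). CYP1B1, which oxidises oestrogens and polycyclic compounds and whose exons overlap RMDN2, had 359 and 726 CPM in SiHa and 14.03 and 20.04 CPM in MS751 (4.67, interval 4.47 to 4.90). The near-identical steroid reductase genes AKR1C1 (246 and 183 CPM), AKR1C2 (169 and 146 CPM) and AKR1C3 (475 and 561 CPM) were listed for SiHa only, so that counts may be split among them. NRF2 targets did not move one way. The quinone reductase gene NQO1 had 1087 and 1189.9 CPM in SiHa and 387 and 438 CPM in MS751 (1.49, interval 1.44 to 1.53), but GSR, glutathione reductase, was lower in SiHa at 65.6 and 51.0 CPM in SiHa and 172 and 229 CPM in MS751 (-1.39, interval -1.495 to -1.29). Of 38 of this list in both tables, 10 were higher in SiHa (26.3%, 9 held) and 6 lower (15.8%, 5 held). The shares of all genes were 13.8% and 15.6%. Of the other list members, 16 were listed for SiHa only, 4 for MS751 only and 8 of 66 for neither. The detoxification list had a median difference of 0.24 between the siControl and 0.18 between the siDDX24-1 libraries. Metallothioneins, which bind zinc and copper and have near-identical copies, were higher in SiHa where listed. MT2A had 1213 and 1409 CPM in SiHa and 217 and 204 CPM in MS751 (2.48, interval 2.43 to 2.54), MT1X 194 and 171 CPM in SiHa and 54.0 and 59.1 CPM in MS751 (1.85, interval 1.73 to 1.96), MT1F was listed for SiHa only and 9 of 12 for neither.

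Lipid synthesis, ribosomal and respiration genes had medians below 0 that lay nearer to or above 0 between the siDDX24-1 libraries. For cholesterol and fatty acid synthesis, 9 of 34 were lower in SiHa (26.5%, 4 held, against 15.6% of all genes). SC5D was higher, 1 gene was listed for SiHa only and STARD4 for MS751 only. Lipid synthesis genes had a median of -0.55 at baseline and 0.067 in the other pair. TM7SF2, a sterol reductase gene whose exons overlap VPS51, had 4.27 and 2.86 CPM in SiHa and 63.1 and 42.5 CPM in MS751 (-3.87, interval -4.25 to -3.54). For cytosolic ribosomal proteins, 11 of 84 were lower (13.1%, 6 held), near the 15.6% of all genes, and none higher. Ribosomal protein genes showed a median difference of -0.46, and of -0.11 between the siDDX24-1 libraries. RPL9 had 11.3 and 8.85 CPM in SiHa and 165 and 158 CPM in MS751 (-3.87, interval -4.09 to -3.66), with exons that overlap LIAS, and RPS12 168 and 203 CPM in SiHa and 743 and 539.8 CPM in MS751 (-2.15, interval -2.21 to -2.09). These genes have many processed copies and their counts are uncertain. Of 73 nuclear genes of oxidative phosphorylation, 8 were lower (11%, 3 held), no more than the 15.6% of all genes, and 2 higher (SDHA and NDUFS6, both held), with 1 of 74 in neither table. Respiration genes had a median difference of -0.29 between the siControl and -0.081 between the siDDX24-1 libraries. The 13 mitochondrially encoded genes had no member past 2-fold, with medians of -0.50 and -0.28. MT-ND3, a complex I subunit, lay just inside (-0.98) and was past 2-fold under several other scalings.

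Among smaller families, the claudins had CLDN1 higher and CLDN23 (-1.02 and -1.08, and -0.77 with the GC trend removed) lower of 5 in both tables, CLDN16 for MS751 only and 17 of 23 in neither (medians -0.29 and 0.12). Of 7 S100 genes in both tables, S100A16 was higher in SiHa and held, at 191 and 198 CPM in SiHa and 5.93 and 0.982 CPM in MS751 (4.99, interval 4.68 to 5.35). S100A4, a mesenchymal marker, had 26.6 and 38.7 CPM in SiHa and 100.2 and 32.3 CPM in MS751 and a difference of -1.91 that did not hold (0.26). A further 5 S100 genes were listed for SiHa only, S100A1 for MS751 only and 6 of 19 for neither (medians -0.18 and 0.64). For cadherins and protocadherins, 3 of 15 were higher (all held) and 4 lower (2 held), and of the rest 6 were listed for SiHa only, 9 for MS751 only and 31 of 61 for neither (medians -0.50 and -0.58). Clustered protocadherin genes share exons, so counts of single members are uncertain. YAP and TAZ targets divided evenly, 7 of 27 higher (5 held) and 7 lower (4 held), and of the rest 3 were listed for SiHa only, 1 for MS751 only and 2 of 33 for neither (medians 0.27 and 0.38). Tissue factor (F3), which starts coagulation, had 138 and 117 CPM in SiHa and 5.93 and 5.83 CPM in MS751 (4.53, interval 4.22 to 4.89), opposite to the targets CCN2 and ANKRD1.

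The line difference was not even along the genome. The median over the 178 genes of chromosome 13 was 0.64 and 0.51 between the siControl and the siDDX24-1 libraries. It was 0.43 and 0.50 on chromosome 18, 0.42 and 0.40 on 20, 0.37 and 0.38 on 21, 0.28 and 0.42 on 16 and 0.25 and 0.24 on 5. It was below 0 on chromosome 4 (-0.43 and -0.43, 371 genes), on 6 (-0.37 and -0.35) and on 19 (-0.24 and -0.031), against -0.0093 and -0.0014 over all genes. Chromosome 19 had the highest median transcript GC content (59.3%), and its siControl median was -0.030 with the GC trend removed. In windows of 40 neighbouring genes, 23 of 265 had a median above 0.5 and 24 below -0.5, and 46 of these kept their sign in the other pair. The strongest stretch was on chromosome 5 from CCDC127 to ITGA2 (196871 to 53094779 of GRCh38). There 59 of 80 genes were higher in SiHa (73.8%, 55 held, against 13.8% of all genes), with medians of 1.42 and 1.42. SDHA, a respiratory complex subunit, lies in it (2.12), as do the integrin genes ITGA1 (2.09, exons overlapping PELO) and ITGA2 (2.35). On chromosome 16 from MT1X to CENPBD1P (56682424 to 89972832), 108 of 200 genes were higher (54%, 82 held), with medians of 1.06 and 1.03. MT1X, NQO1 and the replication genes GINS2 (2.22, exons overlapping GSE1) and CDT1 (1.51) belong to that stretch. A stretch of chromosome 2 from RPL37A to AP1S3 (216498189 to 223838027) lay lowest. There 19 of 40 genes were lower (47.5%, 13 held), with medians of -0.94 and -0.85. Copy number was not measured, and its part in these differences was not tested.

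**Figure D5:**
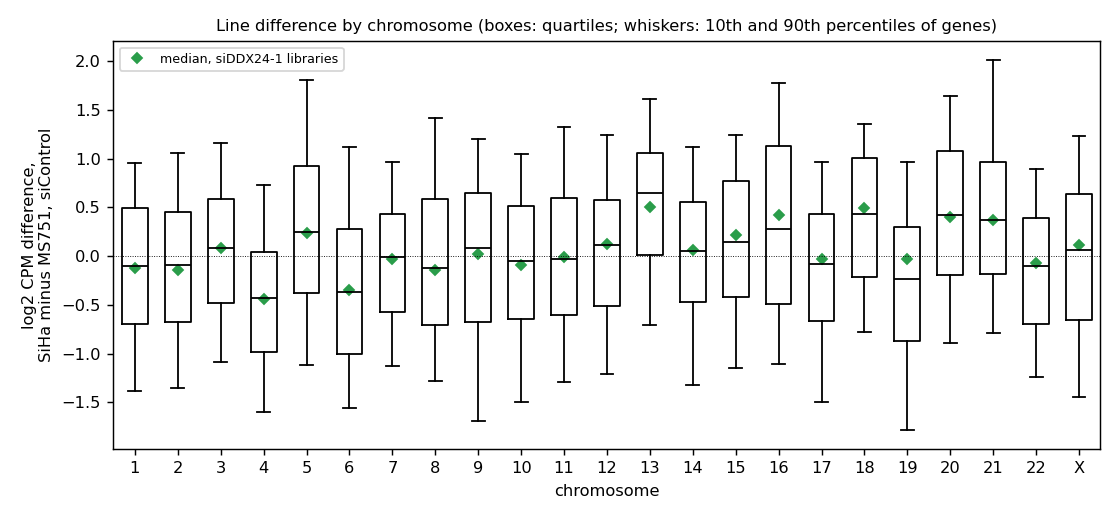
Log2 CPM difference of SiHa minus MS751 between the siControl libraries by chromosome, with boxes for the quartiles, a line for the median and whiskers to the 10th and 90th percentiles of genes. Green diamonds give the median between the siDDX24-1 libraries; chromosome 13 lies highest and chromosome 4 lowest in both pairs.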

How the data were processed

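Libraries were made with the NEBNext Ultra kit from TRIzol RNA of cells at day 2, per the labels' protocols. The authors deposited raw counts of reads by Ensembl gene, 1 table per line and 1 library per group. The submitters' processing notes name fastp 0.23.2, HISAT2 2.0.4, StringTie 1.3.4d and GRCh38.p12 (hg38), without roles. The counter, strand setting, annotation and RNA selection are not given in the sources used, so overlapping and antisense genes cannot be told apart. The lowest deposited level was 1.02 CPM of the table total in each line. Repeated identifiers were dropped (70 copies in SiHa, 73 in MS751), as were 2 identifiers that shared a symbol with a higher one. All 13115 identifiers matched GENCODE release 29 (GRCh38).

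Log2 CPM values were computed with edgeR 4.0.16 in R 4.3.3 (prior count 1). TMM factors (0.993, 0.955, 1.013 and 1.041, SiHa and then MS751) came from the genes in both tables; a filter at a mean of 1 CPM removed none. Intervals at 95% are exact (Clopper-Pearson, conditional on the summed counts); without molecular identifiers they can be too narrow even for counting error. No test was made, since no group has a replicate (1 library each). The scaling and log2 differences, and no later step, were tried on simulated counts of genes listed for both lines. Alternatives were other scalings (DESeq2 size factors among them), prior counts, filters, removal of the GC trend and the siDDX24-1 libraries.

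The comparison and its 39 gene lists and 8 marker lists were chosen with earlier results of these data known. Genes were named by rule: DDX24, AGRN, VEGFA, VEGFB and VEGFC; the 12 highest and 12 lowest held differences with at least 5 CPM in a siControl library; the 12 genes in each table alone with the highest siControl level per kb; and up to 8 members of a list per direction that held or per line listed alone, with all of lists of up to 15. Some genes that this rule names are not reported here. DAG1, ZEB1, ZEB2, S100A4, IFIT1, OAS3, HERC6, HLA-B, HLA-C, PKM, B2M, CKS1B, ATAD2, CCND3, NR4A3 and the genes of the next section were named after their values were seen.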

Additional observations from a re-analysis of the deposited data

Results flagged for a closer look

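Among the genes of the lists, 4 differed at least 2-fold between the lines in opposite directions in the siControl and the siDDX24-1 libraries. The stress response gene GADD45B had 20.8 and 28.3 CPM in SiHa and 41.9 and 10.2 CPM in MS751, with differences of -1.01 (-0.77 with the GC trend removed) and 1.46. The Notch target HES1 had 269.7 and 222 CPM in SiHa and 556 and 77.2 CPM in MS751, with differences of -1.04 and 1.52. INSIG1, which holds back sterol synthesis, had 57.4 and 81.2 CPM in SiHa and 171 and 28.8 CPM in MS751, with differences of -1.58 and 1.5. For these 3 genes the MS751 level was over 2-fold lower in the siDDX24-1 than in the siControl library, and the SiHa levels were within 2-fold of each other. SAMD9L, an interferon-stimulated neighbour of SAMD9, had 24.5 and 4.74 CPM in SiHa and 11.8 and 10.5 CPM in MS751, with differences of 1.05 (0.90 with the GC trend removed) and -1.14, and here the SiHa siDDX24-1 library was low. With 1 library per group the change of direction was not tested. Over all 11112 genes, 10 were at least 2-fold higher and then lower, and 13 the reverse.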

How the results depend on the processing

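The counts of genes at least 2-fold higher and lower, and of those that held, stayed within 1.5 times of those reported under every scaling, prior count, filter, GC and symbol alternative tried, with 1343 to 1560 higher and 1639 to 1978 lower. Requiring the whole counting interval past 2-fold left 1154 and 1334, and the siDDX24-1 libraries gave 1587 and 1592. The genes listed for 1 line only fell to 564 (SiHa) and 453 (MS751) at a minimum of 5 CPM in both libraries of the line, by construction. Of the 307 genes in both tables that the naming rule gives, 285 were past 2-fold and none of these changed sign under an alternative. Some genes named after their values were seen changed sign with the siDDX24-1 libraries, as given above. They included HERC6, S100A4, GADD45B, HES1, INSIG1 and SAMD9L, past 2-fold at baseline, and ZEB1 and HLA-C, within 2-fold. With the GC trend removed, 9 of the 285 fell within 2-fold and 2 others (AGRN and MT-ND3) passed it. No chromosome median beyond 0.1 changed sign, but 5 of 23 moved by over 0.1, chromosome 19 to -0.030. GC removal also moved 15 of 37 list medians by over 0.1, simple keratins from 1.48 to 2.84 the most, and turned that of mesenchymal genes to -0.068. Scaling by library totals changed the sign of 1 list median, by totals without mitochondrially encoded genes 2 and by upper quartile 1. None of those was beyond 0.1 at baseline. With the siDDX24-1 libraries in place of the siControl libraries, 10 list medians changed sign, 8 of them beyond 0.1 at baseline: epithelial adhesion 0.11, cytokines 0.064, Wnt 0.040, vessel growth factors 0.0014, proteases 0.31, S100 0.64, claudins 0.12 and cholesterol 0.067. The others were mesenchymal genes (-0.044) and cancer-testis genes (0.13); the cause was not tested. No paired analysis was possible because each group has 1 library and the labels pair none. A fit of line plus siRNA over the 4 libraries would take any difference between the pairs as noise, with 1 residual degree of freedom, and was not run. Each value rests on 1 library a side, and the libraries of a line share that line, so holding in both pairs is no replicate of a culture. A line difference joins all that differs between the cultures, from genotype to passage and density, which cannot be told apart here. Genes near 1 CPM can fall out of a table by counting error alone.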

Other observations

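Genes listed for 1 line only formed runs of neighbours among the listed genes. For SiHa only, these included UGT1A8, UGT1A10, UGT1A7, UGT1A6 and UGT1A1 on chromosome 2, glucuronidating enzymes that share exons, so that single counts are uncertain. Others were HLA-DRA to HLA-DQB1 on chromosome 6, AKR1E2 to TUBAL3 around the AKR1C genes on chromosome 10, and KRT15, KRT19, KRT16 and KRT17 on chromosome 17. Serpin genes from SERPINB5 to SERPINB2 on chromosome 18, CXCL8, CXCL1, CXCL3 and CXCL2 on chromosome 4, and the SPINK5 to SPINK13 region on chromosome 5 gave further runs. For MS751 only, the longest run was of 8 protocadherin genes on chromosome 5 from PCDHA1 to PCDHB2, whose alpha members share exons. Zinc finger genes of chromosome 19 gave several MS751 runs, the longest of 6 from ZNF320 to ZNF347. A run of 5 on chromosome 15 held the imprinted genes MKRN3, NDN and SNRPN. Chromosome 19 as a whole had 129 genes for MS751 only and 58 for SiHa only, although SiHa-only genes were more numerous in the union. These runs were chosen for their length and carry no test.

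The immediate early gene NR4A3 had 70 and 164 counts in SiHa and 2473 and 170 in MS751. Its baseline difference of -5.52 was -0.38 in the other pair, since the MS751 siControl library alone was high.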
